A study of Mus musculus with 6 samples.

Results

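The 78 genes described here carry the names of proteins of the mitochondrial ribosome, Mrpl for its large subunit and Mrps for its small subunit. They are the Ensembl genes of the expression table whose names begin with Mrpl or Mrps followed by a digit, without the 6 entries with the suffix -ps, which marks pseudogenes. Of the 60193 genes and assembled loci listed, 49 were Mrpl and 29 were Mrps genes. RNA-seq was run on 6 libraries, each made from a pool of metaphase II (MII) oocytes of several ICR mice aged 42 to 45 weeks, an outbred stock near the end of reproductive life. The 3 IVM pools held oocytes that matured in vitro: germinal vesicle oocytes were taken from the ovaries of mice primed with PMSG, stripped of cumulus cells and cultured in M16 medium. The 3 IVO pools held oocytes that matured in vivo: mice received PMSG and then hCG, and ovulated oocytes were taken from the oviduct and freed of cumulus cells with hyaluronidase. The labels name no transgene or further treatment, and the comparison asks how gene expression differs between the 2 routes of maturation at this age.

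Mitochondria keep a small genome, and the mitochondrial ribosome translates its mRNAs into core subunits of the respiratory chain and the ATP synthase. The ribosomal RNAs come from the mitochondrial genome, whereas all the proteins are encoded in the nucleus, made in the cytosol and imported. The large subunit joins amino acids and holds the peptide exit tunnel, and the small subunit binds and decodes the mRNA. Some proteins descend from bacterial ribosomal proteins and others were gained in mitochondria. The fully grown oocyte is transcriptionally silent, so mRNA levels during maturation depend on the fate of stored mRNA.

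Expression was measured as FPKM, fragments on a gene relative to transcript length and sequencing depth. The low FPKM values put the depth at 16500000 to 19240000 fragments per IVM library and 17860000 to 18280000 per IVO library, and 3 fragments on a transcript of 1000 bases corresponded to 0.196 to 0.232 FPKM, a floor that covers counting error only. The inferred mean fragment length was 204 to 218 bases in IVM and 246 to 262 bases in IVO libraries, without overlap, and its part in the differences below was not tested. The median FPKM of the 18818 genes tested was 9.63 to 10.4 in IVM and 6.66 to 7.13 in IVO libraries. Of the 10 oocyte markers examined all were expressed, with summed levels of 9533 to 13711 FPKM in IVM and 6906 to 9203 FPKM in IVO libraries. All 10 had a lower mean on the log2(FPKM + 1) scale in IVO oocytes, 5 of them at a Benjamini-Hochberg adjusted p under 0.05 in limma. Over all tested genes, 66.0% had a negative log2FC and 21.5% were lower at that adjusted p. The summed FPKM of 12 cumulus and granulosa cell markers was 24.4 to 35.0 in IVM and 32.8 to 37.4 in IVO libraries. Most of it came from Fshr (6.14 to 16.3 FPKM over all libraries) and Cyp19a1 (16.3 to 23.1 FPKM), whereas Amh was at 0 throughout. Has2, Ptx3 and Tnfaip6, at 0.49 FPKM or less, were higher in every IVO than in every IVM library. The other markers of this list overlapped between the groups. The summed FPKM of 5 blood markers was 0 to 0.98 in IVM and 0 to 5.82 in IVO libraries. Alas2 was at 0 throughout, and Hbb-bs was at 0 in all IVM libraries and at 0, 2.33 and 2.04 FPKM in the IVO libraries. The summed FPKM of 5 oviduct markers was 2.93 to 3.16 in IVM and 3.40 to 5.76 in IVO libraries. Epcam made up most of it, at 2.69 to 2.88 FPKM in IVM and 2.87 to 5.40 FPKM in IVO libraries, with overlapping groups. Krt8, at 0.18 FPKM or less, was higher in every IVM than in every IVO library. Ovgp1, Foxj1 and Krt18, at 0.39 FPKM or less, overlapped between the groups. Whether these cells contributed to the values below was not tested. The paper's Methods give a set number of oocytes for each pool. FPKM is relative to sequencing depth, so it does not measure the amount of RNA per oocyte.

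Nearly the whole set was expressed, with 73 or 74 of the 78 genes at 1 FPKM or more in each IVM library and 72 to 74 in each IVO library. The same 6 genes had the highest FPKM in all 6 libraries, namely Mrpl45, Mrps36, Mrps14, Mrps24, Mrps33 and Mrpl18, and they held 61.2% to 69.8% of the summed FPKM of the set. Mrpl45, which lies at the exit of the peptide tunnel and anchors the ribosome to the inner membrane, stood at 1006, 1447 and 1593 FPKM in the IVM pools and 949, 846 and 1698 FPKM in the IVO pools. Its pools overlapped widely between the groups. Mrps36, now known as a part of the 2-oxoglutarate dehydrogenase complex rather than of the ribosome, stood at 869, 854 and 688 FPKM in the IVM pools and 510.1, 573 and 546 FPKM in the IVO pools. Every IVO pool lay below every IVM pool for this gene. Mrps14, a homolog of a bacterial small-subunit protein, stood at 495, 623 and 437 FPKM in the IVM pools and 504, 566 and 432 FPKM in the IVO pools, with overlapping groups. Mrps24 stood at 565, 479 and 539 FPKM in the IVM pools and 309, 357 and 352 FPKM in the IVO pools. In FPKM, Mrps36 lay above Mrps24 in both groups, whereas Mrps14 overlapped with Mrps24 in the IVM pools and with Mrps36 in the IVO pools, so their order was not separated beyond the spread. Below these 6 genes the levels fell off over more than an order of magnitude, and the mean FPKM was at least 100 for 9 genes, between 10 and 100 for 37, between 1 and 10 for 28 and under 1 for 4.

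**Figure D1:**
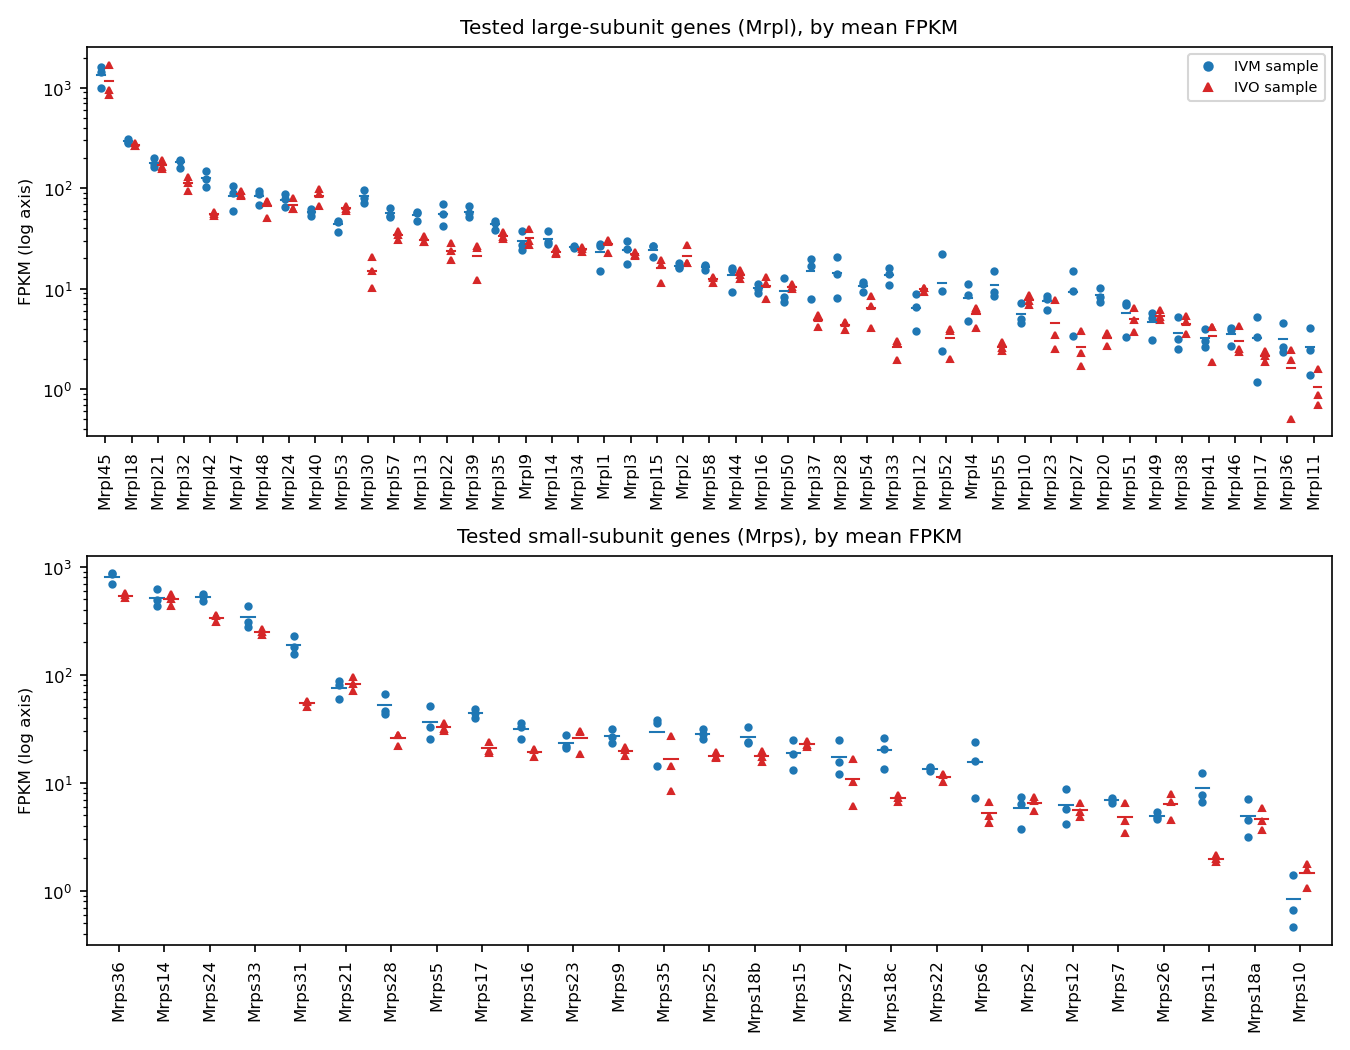
FPKM (log axis) of the 74 tested mitochondrial ribosomal protein genes in each pool, large-subunit genes above and small-subunit genes below, ordered by mean FPKM. Blue circles are the 3 IVM pools, red triangles the 3 IVO pools, and short bars the group means; Mrpl45 leads the large subunit and Mrps36 the small subunit in both groups.

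The 4 genes with a mean FPKM under 1 were not tested. Mrpl43, of the large subunit, had 0.90, 0.61 and 0.74 FPKM in the IVM pools and 0.17, 0.19 and 0.19 FPKM in the IVO pools, with every IVO pool below every IVM pool. Mrpl19, also of the large subunit, had 0.77, 0.15 and 1.22 FPKM in the IVM pools and 0.30, 0.29 and 0.25 FPKM in the IVO pools. Mrps30, which despite its name sits in the large subunit, ranged from 0.16 to 0.50 FPKM over the 6 pools, with overlapping groups. Mrps34, a small-subunit protein, was listed at 0 in 4 pools and at 0.06 and 0.08 FPKM in the others.

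Of the 74 genes tested, 13 were differentially expressed genes (DEGs) with lower FPKM in IVO oocytes, which is 17.6%, and 0 were DEGs with higher FPKM in IVO oocytes. A DEG had a log2FC (IVO against IVM, on log2(FPKM + 1)) of at least 1 in size and a Benjamini-Hochberg adjusted p under 0.05 in limma. Over all tested genes, 17.9% were DEGs with lower and 0.606% DEGs with higher FPKM in IVO oocytes, and over the tested Ensembl genes alone these shares were 14.6% and 0.623%. The share of mitochondrial ribosomal protein genes that were DEGs with lower FPKM lay between both backgrounds. At an adjusted p under 0.05 in limma whatever the fold, 20 of the 74 genes were lower and 0 were higher in IVO oocytes. The share of lower genes was above the 21.5% of all tested genes and the 18.4% of the Ensembl genes. At an unadjusted limma p under 0.05, 26 of the 74 genes were lower, a share above the 31.4% of all tested genes and the 27.1% of the Ensembl genes. Only 2, Mrpl40 and Mrpl53, were higher, a share below the 5.56% and 6.54% of these backgrounds. Every IVO pool lay below every IVM pool for 32 of the 74 genes, a share above the 32.6% of all tested and the 29% of the Ensembl genes. Every IVO pool lay above every IVM pool for 3 genes, a share below the 9.62% and 11.8% of these backgrounds. The log2FC was negative for 54 genes and positive for 20, and its median was -0.39, beside -0.30 for all tested genes and -0.18 for the Ensembl genes. When the libraries were brought to a common level by median-ratio scaling, the median was -0.08 beside -0.04 for all tested genes, and after quantile normalization it changed sign to 0.09 beside 0.17. Over the 12 alternatives in processing other than leaving out a pool, the log2FC stayed negative for 31 of the 74 genes, stayed positive for 17 and changed sign for 26.

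**Figure D2:**
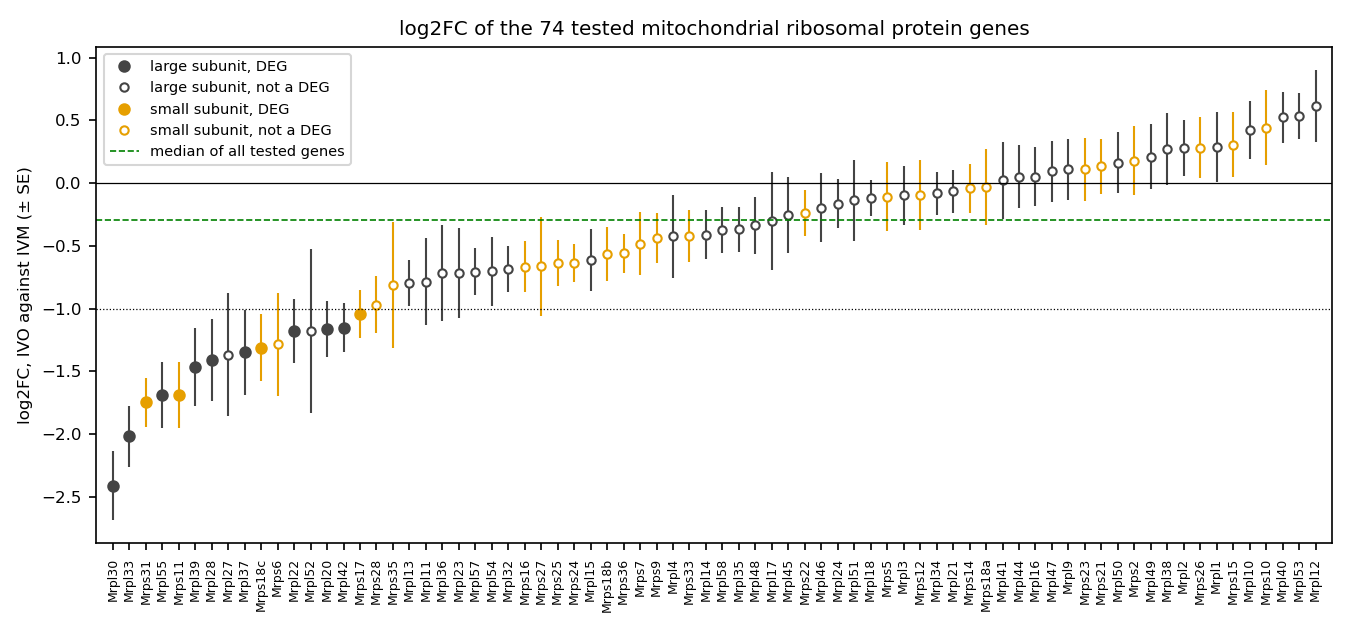
log2FC (IVO against IVM, log2(FPKM + 1) scale) with its standard error for the 74 tested genes, ordered by log2FC; filled points are the 13 DEGs, dark points the large and orange points the small subunit. The dashed line is the median of all tested genes (-0.30, which moved to 0.17 after quantile normalization), and the genes run from Mrpl30 at -2.41 to Mrpl12 at 0.62.

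Among proteins of the large subunit, 9 of 47 tested genes were DEGs, all lower in IVO oocytes. The lowest log2FC belonged to Mrpl30 (ENSMUSG00000026087, chr1:37929558-37939816 on the forward strand, GRCm39), a homolog of bacterial L30. Mrpl30 had 97.1, 71.4 and 80.0 FPKM in the IVM pools and 20.5, 14.9 and 10.2 FPKM in the IVO pools. The highest IVO pool was below the lowest IVM pool, and the mean FPKM was 5.46 times as high in IVM as in IVO oocytes (log2FC -2.41, SE 0.28, limma, Benjamini-Hochberg adjusted p = 0.00213). Mrpl33 (ENSMUSG00000106918, chr5:31754279-31837542, forward strand), a homolog of bacterial L33, had 16.2, 14.0 and 10.9 FPKM in the IVM pools and 2.99, 1.96 and 2.90 FPKM in the IVO pools. Its mean FPKM was 5.24 times as high in IVM oocytes (log2FC -2.02, SE 0.24, limma, Benjamini-Hochberg adjusted p = 0.00242). Mrpl55, another large-subunit protein, had 15.2, 9.35 and 8.51 FPKM in the IVM pools and 2.93, 2.56 and 2.40 FPKM in the IVO pools. Here too the groups were apart, with a log2FC of -1.69 (SE 0.26, limma, Benjamini-Hochberg adjusted p = 0.00565). These 3 genes had the lowest log2FC of the large subunit as deposited, and each was called with every single pool left out.

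The other large-subunit DEGs fell by less. Mrpl42, a protein gained in mitochondria, had 149.9, 124 and 103 FPKM in the IVM pools and 58.3, 55.2 and 52.6 FPKM in the IVO pools (log2FC -1.15, SE 0.19, limma, Benjamini-Hochberg adjusted p = 0.00744). Mrpl20, whose bacterial homolog is needed early in the assembly of the large subunit, had 10.1, 8.22 and 7.33 FPKM in the IVM pools and 2.70, 3.46 and 3.63 FPKM in the IVO pools (log2FC -1.16, SE 0.22, limma, Benjamini-Hochberg adjusted p = 0.0111). Both kept the call when any 1 pool was left out, and both lost it under median-ratio scaling, where the log2FC was -0.83 for Mrpl42 and -0.89 for Mrpl20. Mrpl39, a mitochondrial protein related to threonyl-tRNA synthetase, had 66.2, 56.9 and 51.2 FPKM in the IVM pools and 25.3, 26.5 and 12.4 FPKM in the IVO pools (log2FC -1.46, SE 0.31, limma, Benjamini-Hochberg adjusted p = 0.016). Mrpl22, which lines the peptide exit tunnel, had 70.0, 54.9 and 42.2 FPKM in the IVM pools and 19.1, 23.8 and 28.6 FPKM in the IVO pools (log2FC -1.18, SE 0.25, limma, Benjamini-Hochberg adjusted p = 0.017). The groups did not overlap for either gene, but they were wide, from 12.4 to 26.5 FPKM among the IVO pools of Mrpl39 and from 42.2 to 70.0 FPKM among the IVM pools of Mrpl22. Mrpl28, a homolog of bacterial L28, had 20.7, 8.08 and 13.9 FPKM in the IVM pools and 4.60, 4.69 and 3.91 FPKM in the IVO pools (log2FC -1.41, limma, Benjamini-Hochberg adjusted p = 0.0224). Mrpl37, a protein gained in mitochondria, had 19.9, 7.95 and 16.9 FPKM in the IVM pools and 5.09, 5.43 and 4.18 FPKM in the IVO pools (log2FC -1.35, limma, Benjamini-Hochberg adjusted p = 0.0289). In both, the IVM pool with replicate number 2 was the lowest of its group, and these calls were lost most often when a pool was left out. Mrpl28 and Mrpl37 lost the call without IVM 1, IVM 3 or any 1 of the IVO pools, Mrpl22 without IVM 1, IVM 2, IVO 1 or IVO 2, and Mrpl39 without IVM 1 or IVM 2.

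**Figure D3:**
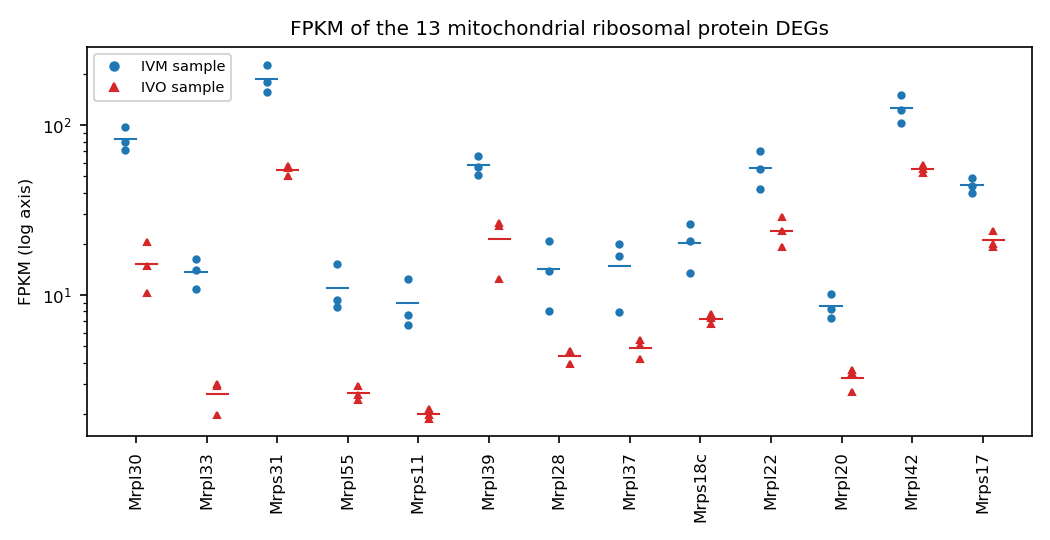
FPKM (log axis) of the 13 mitochondrial ribosomal protein DEGs in each pool, ordered by log2FC; blue circles are IVM pools, red triangles IVO pools and short bars group means (n = 3). All 3 IVO pools lay below all 3 IVM pools for each of these genes, with the largest ratio of group means at Mrpl30 and the smallest at Mrps17.

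In the small subunit 4 of 27 tested genes were DEGs, again all lower in IVO oocytes. Mrps31 (ENSMUSG00000031533, chr8:22901363-22921195, forward strand), a protein gained in mitochondria, had the highest mean FPKM of the 13 DEGs over the 6 pools, with 156, 227 and 180.5 FPKM in the IVM pools and 55.8, 50.3 and 57.6 FPKM in the IVO pools. Its mean FPKM was 3.44 times as high in IVM as in IVO oocytes, and the 3 IVO pools lay close together (log2FC -1.75, SE 0.20, limma, Benjamini-Hochberg adjusted p = 0.00203). Mrps11, a homolog of bacterial S11, had 7.66, 6.69 and 12.4 FPKM in the IVM pools and 1.87, 2.14 and 1.97 FPKM in the IVO pools. It was a DEG with each pool left out (log2FC -1.69, SE 0.27, limma, Benjamini-Hochberg adjusted p = 0.00599). Mrps17, a homolog of bacterial S17, was the DEG just inside the fold threshold, with 48.9, 44.0 and 39.6 FPKM in the IVM pools and 23.9, 19.1 and 19.9 FPKM in the IVO pools (log2FC -1.04, limma, Benjamini-Hochberg adjusted p = 0.00964), and it lost the call without IVM 1 or IVO 2. Just outside lay Mrps28, with 46.5, 66.4 and 43.5 FPKM in the IVM pools and 27.7, 22.0 and 27.7 FPKM in the IVO pools (log2FC -0.97, limma, Benjamini-Hochberg adjusted p = 0.0229).

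The mouse has 3 Mrps18 paralogs, and only their copies C and B belong to the small subunit, while the copy A sits in the large subunit. Mrps18c, the copy closest to bacterial S18, was a DEG with 26.3, 20.7 and 13.6 FPKM in the IVM pools and 7.32, 7.77 and 6.71 FPKM in the IVO pools (log2FC -1.31, limma, Benjamini-Hochberg adjusted p = 0.0139), though not without IVM 2. It also lost the call after quantile normalization (log2FC -0.81) and with the trend with length removed (log2FC -0.69), with or without the replicate number as a block. Mrps18b had 33.2, 23.9 and 23.2 FPKM in the IVM pools and 17.4, 19.7 and 15.7 FPKM in the IVO pools, also without overlap, and was not a DEG (log2FC -0.56, limma, Benjamini-Hochberg adjusted p = 0.105). Mrps18a had 7.05, 4.56 and 3.13 FPKM in the IVM pools and 5.83, 4.48 and 3.64 FPKM in the IVO pools, with overlapping groups (log2FC -0.03). The FPKM ratio of Mrps18c to Mrps18a was 3.73, 4.54 and 4.33 in the IVM pools and 1.26, 1.73 and 1.84 in the IVO pools, a difference of -1.40 on the log2 scale. The ratio of Mrps18c to Mrps18b was 0.792, 0.864 and 0.585 in IVM and 0.420, 0.394 and 0.428 in IVO pools, and that of Mrps18b to Mrps18a was 4.71, 5.25 and 7.41 in IVM and 2.99, 4.41 and 4.31 in IVO pools. None of these ratios overlapped between the groups, and a ratio within a library does not depend on a linear scaling of the libraries. An exact two-sided permutation test gave p = 0.1 for each of the 3 ratios, the smallest value that 3 against 3 pools allow, and the Benjamini-Hochberg adjusted value was 0.1.

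Several further genes had lower FPKM in IVO oocytes at an adjusted p under 0.05 without reaching the fold threshold: Mrpl13, Mrpl32 and Mrpl57 of the large subunit and Mrps24, Mrps25, Mrps28 and Mrps36 of the small subunit. Mrps36 had a log2FC of -0.56 (limma, Benjamini-Hochberg adjusted p = 0.0407), and it came to -0.23 under median-ratio scaling and to 0.01 once the trend with length was removed. Mrps24, a homolog of bacterial S3, had a log2FC of -0.63 (limma, Benjamini-Hochberg adjusted p = 0.0245), which stayed negative under all 12 alternatives (-0.71 to -0.13). By contrast Mrpl27, Mrpl52 and Mrps6 had a log2FC past the fold threshold (-1.37, -1.18 and -1.28) and missed the adjusted p in limma (Benjamini-Hochberg adjusted p = 0.087, 0.238 and 0.0611). For Mrpl52 the IVM pools alone ran from 2.40 to 22.3 FPKM.

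At the other end of the range, no gene was a DEG with higher FPKM in IVO oocytes, but 3 genes of the large subunit had every IVO pool above every IVM pool. Mrpl12, the homolog of the bacterial L7/L12 stalk protein that recruits translation factors, had 8.82, 3.79 and 6.62 FPKM in the IVM pools and 9.24, 10.3 and 10.2 FPKM in the IVO pools (log2FC 0.62, SE 0.29, limma, Benjamini-Hochberg adjusted p = 0.173). Mrpl53, gained in mitochondria, had 37.0, 47.3 and 46.5 FPKM in the IVM pools and 62.5, 67.4 and 59.9 FPKM in the IVO pools (log2FC 0.53, SE 0.18, limma, Benjamini-Hochberg adjusted p = 0.0764). Mrpl40, also gained in mitochondria, had 52.7, 62.3 and 57.7 FPKM in the IVM pools and 97.9, 87.7 and 66.8 FPKM in the IVO pools (log2FC 0.53, SE 0.20, limma, Benjamini-Hochberg adjusted p = 0.106). None passed the test as deposited, and all 3 were DEGs with higher FPKM after quantile normalization, with a log2FC of 1.11, 1.03 and 1.03.

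Several further members had a log2FC between -0.37 and 0.05, most of them with overlapping groups. Mrpl44, a protein with an RNase III-like fold, had 15.4, 9.37 and 16.1 FPKM in the IVM pools and 15.4, 12.5 and 13.7 FPKM in the IVO pools (log2FC 0.05). Mrpl41 had a log2FC of 0.02, Mrps14 of -0.04, Mrpl21 of -0.07 and Mrpl18 of -0.12, where every IVO pool of Mrpl18 was below every IVM pool. Under median-ratio scaling the same 4 genes were at 0.27, 0.28, 0.26 and 0.20. Mrps12, which forms part of the decoding centre, had 8.72, 4.19 and 5.72 FPKM in the IVM pools and 6.56, 5.37 and 4.79 FPKM in the IVO pools (log2FC -0.09). Mrps5, another homolog of a bacterial small-subunit protein, had 33.1, 25.5 and 51.4 FPKM in the IVM pools and 30.3, 31.5 and 36.1 FPKM in the IVO pools (log2FC -0.11). Mrpl58, a peptidyl-tRNA hydrolase built into the large subunit, had 16.7, 15.2 and 17.2 FPKM in the IVM pools and 13.1, 11.3 and 12.9 FPKM in the IVO pools (log2FC -0.37, limma, Benjamini-Hochberg adjusted p = 0.187), and it was lower in every IVO pool. Mrpl58 and Mrps12 changed sign under quantile normalization (0.14 and 0.40), as did Mrps5 (0.34).

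The subunits were then set beside each other. The median log2FC was -0.34 in the large and -0.48 in the small subunit, and 19.1% and 14.8% of the tested genes were DEGs. Once Mrps18a and Mrps30 were moved to the large subunit where their proteins sit and Mrps36 was left out, the medians were -0.32 for 48 tested genes and -0.48 for 25. With all genes grouped by symbol, the medians were -0.05 and -0.21 with median-ratio scaling and 0.15 and 0.00 with quantile normalization. The sign of the medians thus depended on the scaling, while the small subunit had the lower median in each of these settings. These settings rescale the same 6 libraries. Over the 9 sample pairs, the SD of the median was 0.0763 for the large and 0.138 for the small subunit. The summed FPKM of the small subunit was 2902, 3112 and 2626 in the IVM pools and 2041, 2171 and 1961 in the IVO pools. That of the large subunit was 2864, 3302 and 3442 in IVM and 2405, 2298 and 3099 in IVO pools, where Mrpl45 alone carried 1698 FPKM in the last of these. Without Mrpl45 the large subunit summed to 1858, 1855 and 1849 FPKM in IVM and 1455, 1452 and 1401 FPKM in IVO pools. Both sums were thus lower in every IVO pool once Mrpl45 was set aside, and so was the median FPKM of each subunit, at 16.2, 15.1 and 16.9 for the large and 25.5, 21.2 and 24.7 for the small subunit in IVM against 13.0, 11.3 and 10.2 and 17.4, 18.4 and 15.7 in IVO pools. As a share of all FPKM in a library, the set held between 0.275% and 0.332% in IVM pools, which overlapped with the 0.285% to 0.308% of IVO pools. The ratio of large to small subunit without Mrpl45 was 0.640, 0.596 and 0.704 in IVM and 0.713, 0.669 and 0.714 in IVO pools, also with overlap. Among proteins with a bacterial homolog 9 of 45 tested genes (20%) were DEGs (median log2FC -0.43), and among those gained in mitochondria 4 of 28 (14.3%, median log2FC -0.30). Both shares were close to the 17.9% of all tested genes and the 14.6% of the Ensembl genes with lower FPKM.

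The listed length, which enters FPKM as a divisor, ran from 405 bases for Mrps21 to 7300 bases for Mrpl17. Both genes at the ends had overlapping groups, with a log2FC of 0.13 and -0.30. Of the 23 tested genes under 1000 bases 6 were DEGs, with a median log2FC of -0.71, and 22.3% of the tested Ensembl genes of that length were DEGs lower in IVO, with a median of -0.39. From 1000 to under 2000 bases 4 of 27 were DEGs (median -0.16), against 14.6% (median -0.18). From 2000 bases 3 of 24 were DEGs (median -0.35), against 12% (median -0.13). The short large-subunit genes had the lowest median of these groups, -0.93 over 14 genes with 5 DEGs, while the 9 short small-subunit genes had a median of -0.56 with 1 DEG. Across the genes, Spearman's rho between log2FC and listed length was 0.16 over the 74 genes, 0.22 over the 47 of the large and -0.01 over the 27 of the small subunit, beside 0.10 over 13154 Ensembl genes. These genes share the same 6 libraries, so the coefficients are a description and carry no p. With the length of the annotated canonical transcript in place of the listed length, rho was -0.01, and with its coding length 0.19. The listed length differed from the canonical transcript by over 5% for all but 41 of the 78 genes, including Mrpl30 (662 listed, 3169 canonical) and Mrpl33 (2178 listed, 732 canonical).

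**Figure D4:**
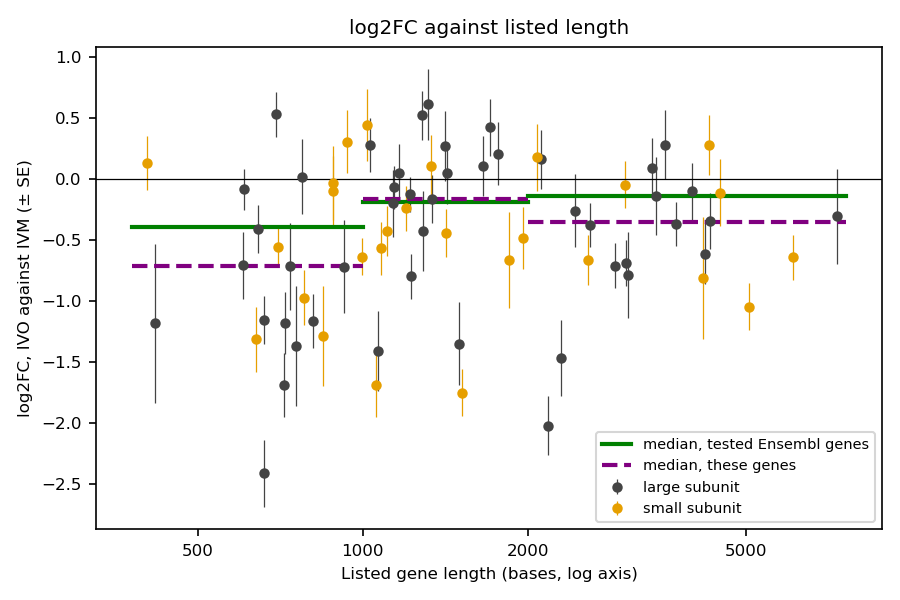
log2FC (IVO against IVM, log2(FPKM + 1) scale, with standard error) against the length listed for each gene (bases, log axis) for the 47 large-subunit (dark) and 27 small-subunit genes (orange). Dashed lines are the medians of these genes in 3 classes of length (-0.71, -0.16 and -0.35) and solid lines those of the tested Ensembl genes (-0.39, -0.18 and -0.13).

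In maturing oocytes, short elements near the 3′ end of a stored mRNA, called cytoplasmic polyadenylation elements, are known to govern poly(A) tail length and translation, so the ends of these mRNAs were read. The elements TTTTAT and TTTTAAT were searched on the sense strand of the last 100 bases of the canonical transcript, for genes whose listed length lay within 5% of that transcript. Of the 37 tested genes that qualified, 8 (21.6%) held 1 of them, beside 1118 of 5420 (20.6%) protein-coding genes selected in the same way. The sites are shown 5′ to 3′ in the direction of the mRNA on GRCm39, each within the 3′UTR, with the element in capitals. They are the members that hold an element, and their log2FC follows below the sequences.
Mrpl22 (chr11:58070377-58070406, forward strand): aaacaagtgatTTTTATctgtttcattgaa
Mrps14 (chr1:160029641-160029670, forward strand): tcccaggtTTTTATgttctatgcatctact
Mrpl2 (chr17:46961036-46961065, forward strand): taataaaatgtctcttgtTTTTATctctta
Mrpl11 (chr19:5016998-5017027, forward strand): acaattaaaacTTTTATtacgtgtataatc
Mrpl44 (chr1:79759067-79759096, forward strand): agctagatgtaTTTTATtccctccagcttt
Mrpl49 (chr19:6103710-6103739, reverse strand): ttaatgcaagtTTTTATtgagctgtatata
Mrpl51 (chr6:125173167-125173196, forward strand): tgtcaatgatcTTTTATgacgtaacagtcc
Mrpl53 (chr6:83086881-83086910, forward strand): aaccaagtacaTTTTAATtaaatatttatt

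Of these 8 genes, Mrpl22 with its element 19 bases before the end of the transcript was the 1 DEG. Mrpl53, with the only TTTTAAT, 22 bases before the end, had the second highest log2FC of the set (0.53). The other 6 had a log2FC of -0.04 (Mrps14), 0.28 (Mrpl2), -0.78 (Mrpl11), 0.05 (Mrpl44), 0.21 (Mrpl49) and -0.14 (Mrpl51). The median log2FC was 0.00 for the 8 genes with an element and -0.34 for the 29 without, of which 2, Mrpl28 and Mrps11, were DEGs. Over the protein-coding genes selected alike, the medians were -0.01 with and -0.19 without an element, and 93 of 1118 and 649 of 4302 were DEGs with lower FPKM in IVO oocytes. The polyadenylation signals AATAAA or ATTAAA were found in the last 100 bases of 27 of the 37 genes (73.0%) and of 84.0% of the protein-coding genes. A match is a description of the sequence, and whether these sites act in oocytes was not tested. Whether poly(A) tail length itself moved FPKM in these libraries, apart from the amount of mRNA, was not tested either.

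The place of the genes in the genome may limit what their values can separate. From annotated start to end, introns included, 42 of the 78 genes overlap another protein-coding gene, 39 of them on the opposite strand. The sources used here do not state that strand was used in counting. Whether the partners share exon bases, and so how far their reads can be told apart, was not tested. Mrps11 and Mrpl46 (chr7:78424922-78433279) overlap on opposite strands, a pair picked after their values were seen. The FPKM ratio of Mrps11 to Mrpl46 was 1.97, 2.51 and 3.05 in IVM and 0.803, 0.507 and 0.791 in IVO pools. These ratios did not overlap between the groups, and Mrpl46 itself had overlapping groups and a log2FC of -0.19. Mrpl33 overlaps Rbks and Mrpl37 overlaps Cyb5rl, both on the opposite strand. Every gene of the set has at least 3 annotated transcripts and 1 has 54, so FPKM sums over isoforms. Mrps36, Mrpl23, Mrpl27 and Mrpl48 share their name with at least 1 pseudogene in the table, and reads may have been split between them: Mrps36-ps1 stood at 32.2, 34.2 and 34.9 FPKM in IVM and 22.0, 28.6 and 23.0 FPKM in IVO pools, far below Mrps36.

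The rest of the mitochondrial translation system was compared in the same fit. Of 6 ribosomal proteins that carry other names, Gadd45gip1 of the large subunit was a DEG with 13.2, 18.5 and 32.1 FPKM in the IVM pools and 6.18, 6.31 and 3.81 FPKM in the IVO pools (log2FC -1.73, limma, Benjamini-Hochberg adjusted p = 0.0139). Ptcd3 of the small subunit had a log2FC of 0.77 (limma, Benjamini-Hochberg adjusted p = 0.0259), under the fold threshold. Of 25 assembly factors 18 were tested, with a median log2FC of 0.14, and 2 were DEGs in opposite directions. The 1 lower DEG was 5.56% of those tested, beside 17.9% of all tested genes, and 0.606% of all tested genes were higher. Trub2, a pseudouridine synthase of mitochondrial RNA, had 38.4, 26.3 and 6.13 FPKM in the IVM pools and 0.24, 0.11 and 0.16 FPKM in the IVO pools (log2FC -4.08, limma, Benjamini-Hochberg adjusted p = 0.00465). Fastkd2, an RNA-binding protein needed for the large subunit, had 1.81, 5.38 and 5.13 FPKM in the IVM pools and 25.8, 13.8 and 7.62 FPKM in the IVO pools (log2FC 1.65, limma, Benjamini-Hochberg adjusted p = 0.0482), and this call was lost when any 1 pool other than IVO 3 was left out. The IVM pools of Trub2 were widely spread, yet the lowest of them was still far above the IVO pools.

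Of 12 tested translation factors and mRNA-binding proteins 4 (33.3%) were DEGs, all with lower FPKM in IVO oocytes, and the median log2FC was -0.15. The share of DEGs with lower FPKM was 17.9% over all tested genes and 14.6% over the Ensembl genes. Lrpprc and Slirp form a complex that stabilises mitochondrial mRNAs. Lrpprc had 158, 177 and 135 FPKM in the IVM pools and 51.4, 44.6 and 49.2 FPKM in the IVO pools (log2FC -1.67, limma, Benjamini-Hochberg adjusted p = 0.00189), and Slirp was lower as well (log2FC -1.78, limma, Benjamini-Hochberg adjusted p = 0.00924). The release factor Mtrf1 had a log2FC of -1.23 and the initiation factor Mtif2 of -1.10 (limma, Benjamini-Hochberg adjusted p = 0.00782 and 0.00897), and both lost the call under median-ratio scaling (-0.92 and -0.80). Neither ribosomal RNA was a DEG, and whether these libraries captured rRNA in proportion to its amount was not tested. The small rRNA, mt-Rnr1, had 575, 1281 and 1581 FPKM in the IVM pools and 1367, 1205 and 644 FPKM in the IVO pools (log2FC -0.04), and the large rRNA, mt-Rnr2, had 1351, 2677 and 2156 FPKM in the IVM pools and 3947, 2658 and 2133 FPKM in the IVO pools (log2FC 0.51). All 13 protein-coding genes of the mitochondrial genome had a positive log2FC as deposited (median 0.64). Of these genes, mt-Atp6 and mt-Atp8 were DEGs with higher FPKM in IVO oocytes (log2FC 1.17 and 1.21, limma, Benjamini-Hochberg adjusted p = 0.00599 and 0.00908), the first of them not after quantile normalization. Over all tested genes, 0.606% were DEGs with higher FPKM in IVO oocytes. Whether the reads of mt-Atp6 and mt-Atp8 came from separate mRNAs was not tested. The listed length of mt-Atp8, 204 bases, was no longer than the inferred mean fragment length of any library. That fragment length was 204 to 218 bases in IVM and 246 to 262 bases in IVO libraries. Its part in the log2FC of mt-Atp8 was not tested. The summed FPKM of the 13 genes was 22261 to 37070 in IVM and 45647 to 63048 in IVO pools.

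The DEGs of the set differed in how far they depended on processing. Mrpl30, Mrpl33 and Mrps31 were DEGs under each of the 12 other settings and with each of the 6 pools left out in turn. Over the 12 settings the log2FC was -2.48 to -1.81 for Mrpl30, -2.35 to -1.54 for Mrpl33 and -1.80 to -1.23 for Mrps31. With each pool left out in turn, 7 of the 13 genes were called throughout, which adds Mrpl55, Mrps11, Mrpl20 and Mrpl42. Median-ratio scaling kept 8 of the 13, scaling to the same summed FPKM 7 and quantile normalization 5, where 11.2%, 11.3% and 8.4% of all tested genes were DEGs with lower FPKM in IVO oocytes. Quantile normalization also called 3 genes higher, against 5.83% of all tested genes. With each library's trend of FPKM with length removed, 6 genes were lower (6.98% of all tested genes) and 2 higher (4.83%), and with the replicate number added as a block 3 were lower (3.33%). The block alone kept 11 (15.4%). Of the 78 genes 11 were lower without a filter on low values (7.75%), and of the 66 with a mean of at least 5 FPKM 13 were (22%). A pseudocount of 0.1 (17.7%), eBayes without trend (17.6%) and Ensembl genes only (15%) each called the same 13 genes, and fragments rebuilt from FPKM called 15 (17.6%), with Mrps28 and Mrps6 in addition. The members' share lay above the background in some of these settings and below it in others. All 13 genes kept a negative log2FC under every setting tried. They were selected in these same data at a log2FC of -1 or lower, so the kept sign is no independent support.

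**Figure D5:**
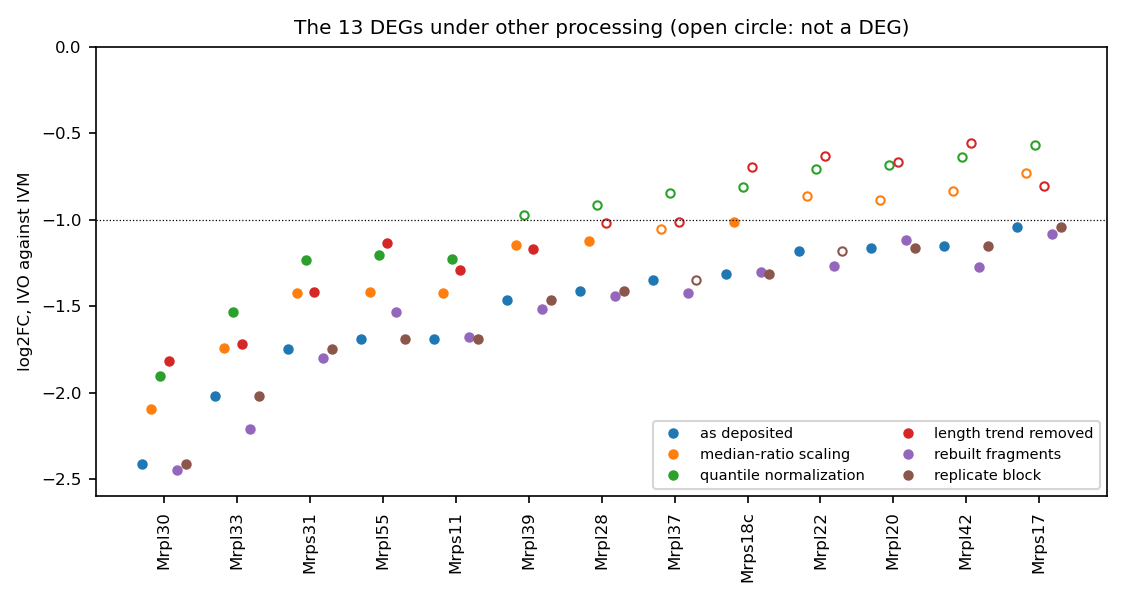
log2FC (IVO against IVM, log2(FPKM + 1) scale) of the 13 DEGs as deposited and under 5 of the alternatives; filled circles are DEGs, open circles are not, and the dotted line is the fold threshold. Mrpl30, Mrpl33 and Mrps31 were called under each setting shown, and Mrpl22, Mrpl20, Mrpl42 and Mrps17 lay above the line after median-ratio scaling, quantile normalization and removal of the length trend.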

How the data were processed

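RNA-seq libraries (SMART-Seq v4, Nextera XT, paired-end) came from 3 IVM and 3 IVO pools of MII oocytes, grouped by sample title. Per the Methods and the labels, the authors used SeqPrep and Sickle to filter reads, HISAT2 2.1.0 to align them to GRCm39 and RSEM 1.3.3 for the deposited FPKM, and listed a length for each gene. The annotation release is not given in the sources used here. The authors' group means and KEGG columns were not used. The authors tested counts with DESeq2 1.24.0, which FPKM does not allow.

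IVO was compared with IVM by limma 3.58.1 in R 4.3.3 (lmFit, eBayes with trend) on log2(FPKM + 1), without further scaling, for the 18818 genes whose mean FPKM was 1 or more. P-values were two-sided, Benjamini-Hochberg adjusted over all tested genes, and measure only the spread between these pools. Exact permutation of 3 against 3 pools cannot go below 0.1. The pseudocount understates the log2FC of low genes. Tested on simulated data for this comparison, the fit recovered 150 of 200 genes (75%) changed by 2 on the log2 scale and called 10 unchanged genes, of 18818.

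Depth and fragment length were estimated from low FPKM values of genes with 1 transcript of 400 to 2000 bases, of which 74.2% to 75.9% were within 0.1 of a whole number of fragments, too few for a count test. Coordinates, transcripts and sequences are those of the GENCODE annotation of GRCm39. The members, the gene lists, the tests and the alternatives named with their values were chosen with earlier results of these data known. Genes named are the DEGs, the most abundant, the least changed, the shortest and longest, those not tested and a list of known roles, and others were named after their values were seen. The trend with length was removed by lowess (span 0.3). Python 3.11.15 with pandas 2.3.3, numpy 2.4.6, scipy 1.17.1 and matplotlib 3.10.9 made the tables and plots.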

Additional observations from a re-analysis of the deposited data

How the results depend on the processing

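The count of 13 genes with lower FPKM in IVO oocytes was 11 to 15 with a pseudocount of 0.1, no filter or a stricter one, eBayes without trend, Ensembl genes only or rebuilt fragments. It was 8 with median-ratio scaling, 7 with the same summed FPKM, 5 with quantile normalization and 6 with the length trend removed. The count of genes with higher FPKM, 0 as deposited, was 3 with quantile normalization (Mrpl12, Mrpl40 and Mrpl53) and 2 with the length trend removed (Mrpl53 and Mrps21). The median log2FC of the large and the small subunit was -0.0499 and -0.21 with median-ratio scaling, -0.0383 and -0.20 with the same summed FPKM, 0.15 and 0.00471 with quantile normalization, and -0.0477 and -0.10 with the length trend removed. Removing that trend brought Spearman's rho with length from 0.16 to -0.0124. The median of all tested genes moved as well, from -0.30 to -0.04, -0.03, 0.17 and 0.16 in these 4 settings. No shared shift of same-numbered pools was seen, as their deviations from the group means correlated at -0.06, -0.02 and -0.11. These values cannot show whether such pools were collected or processed together. With the replicate block the count was 11, losing Mrpl22 and Mrpl37. The replicate block with the length trend removed gave 3 lower and 0 higher genes, medians of -0.0477 and -0.10 and a rho of -0.0124. With each pool left out in turn, the lower count ranged from 9 to 13 and the higher count stayed at 0. The medians ranged from -0.39 to -0.27 for the large and from -0.52 to -0.38 for the small subunit, and rho from 0.11 to 0.20. The cause of these shifts was not tested. Transcripts near the floor of about 0.2 FPKM, such as Mrps34, were not quantifiable at this depth.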
